A study of Mus musculus with 12 samples.

Results

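Small RNA levels in the spleens of ovalbumin-sensitised mice were compared between day 28 and day 14 of the protocol. The comparison used the 4 arrays labelled OVA day 28 and the 4 labelled OVA day 14, which are 8 of the 12 arrays of the series. Ovalbumin (OVA) is the main protein of egg white and a common experimental allergen. Female mice of 8 weeks received 0.05 mg OVA per day by intraperitoneal injection on days 1, 3 and 5, and their spleens were collected at day 28 or at day 14. The other 4 arrays, 2 at each day, came from mice injected with normal saline on the same schedule, and they enter below only where stated. Mice were chosen for the arrays by a high level of OVA-specific IgE in blood, so the OVA groups describe antibody responders and not all injected mice. The mouse strain is not given in the sources used here. Arrays carry replicate numbers in the labels, but no label ties an array to its own mouse, so the p-values measure only the spread between these arrays, which may be technical.

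MicroRNAs are short RNAs that guide Argonaute proteins to messenger RNAs and lower their translation or stability. In the spleen, where B cells meet antigen and T cell help and can switch to making IgE, microRNAs take part in lymphocyte development, in germinal centre reactions and in the maturation of myeloid and erythroid cells. The table pairs its numeric probe-set identifiers with no RNA name, species or sequence, and 0 of them matched the gene and miRNA tables used here. The changes below are therefore described by level, size and array, no RNA is named, and markers of spleen cell types could not be read.

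Probe sets with identical values on all 12 arrays were counted as 1 profile. The 36249 probe sets formed 25112 distinct profiles, of which 2481 had a mean log2 intensity of at least 1 over the 8 OVA arrays and were tested. They stand for 5249 probe sets. Bright profiles, whose mean log2 intensity was 4 or more, numbered 1006. A log2 change of 1 is a 2-fold difference in intensity.

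The day 28 arrays fell into 2 close pairs. Among the bright profiles, replicates 3 and 4 differed by a median of 0.12 log2 units and replicates 1 and 2 by 0.14, the smallest differences between any 2 of the 12 arrays. The closest day 14 arrays, replicates 2 and 3, differed by 0.18. Pearson correlation across the bright profiles was 0.993 within each day 28 pair and 0.972 to 0.981 between the pairs, against 0.975 to 0.988 within day 14. The labels do not say whether the arrays of a pair share a mouse, an RNA extract or a hybridisation day, so the number of independent samples behind the 4 day 28 arrays is not known.

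Along the first principal component of the 2481 profiles, which held 51.1% of their variance, the score was 22.3 and 24.1 for day 28 replicates 3 and 4, and it was 1.94 and 4.78 for replicates 1 and 2. The day 14 arrays scored -19.3, -16.7, -15.7 and -1.42 for replicates 1 to 4. The days did not overlap, yet day 28 replicate 1 lay much nearer to day 14 replicate 4 than to day 28 replicate 3. Day 14 replicate 4 scored between the other day 14 arrays and day 28, and its correlations with day 28 replicates 1 and 2 were 0.985 and 0.984, against 0.975 to 0.980 with its own group. The array closest to it was saline day 14 replicate 1, at a median difference of 0.17 log2 units over the bright profiles, against 0.24 for OVA day 28 replicate 1. OVA day 28 replicates 1 and 2 were likewise nearer to the saline day 14 arrays (0.19 to 0.22) than to OVA day 28 replicates 3 and 4 (0.27 to 0.31).

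**Figure D1:**
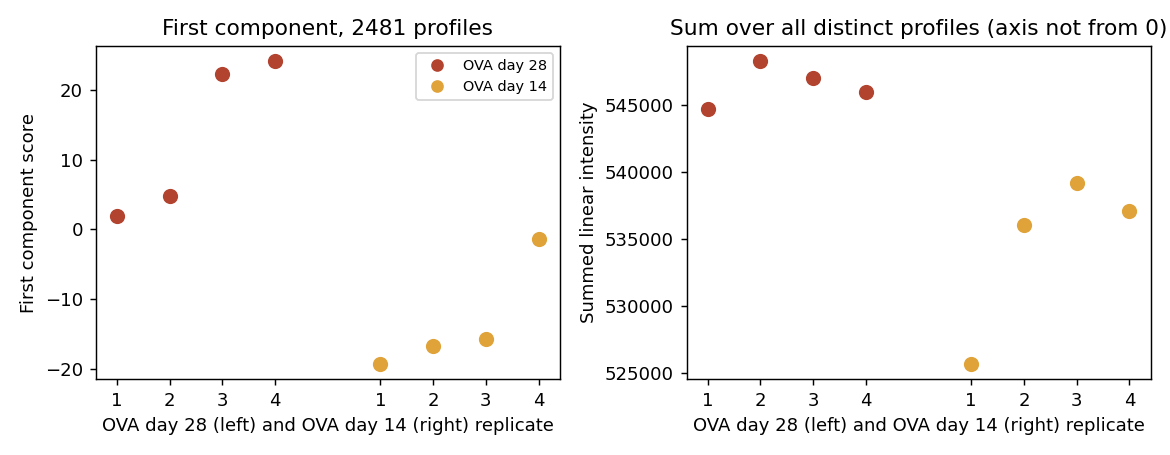
Scores of the 8 OVA arrays on the first principal component of the 2481 tested profiles (left panel) and summed linear intensity over all distinct profiles (right panel, axis not starting at 0), 1 point per array. Day 28 replicates 3 and 4 score above 20, replicates 1 and 2 below 5, and day 14 replicate 4 lies next to day 28 replicate 1. Every day 28 array has a higher sum than every day 14 array.

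Total signal over the distinct profiles was slightly higher at day 28. Summed linear intensity over the distinct profiles was 546467 ± 1523 at day 28 and 534484 ± 6043 at day 14 (SD, n = 4 each). All day 28 arrays lay above all day 14 arrays, and the two-sided exact permutation p was 0.029, the smallest that 4 against 4 arrays allow, and 0.11 after Benjamini-Hochberg adjustment over 4 array measures. With every probe set counted on its own, mean linear intensity was 47.4, 49.0, 51.7 and 51.2 in day 28 replicates 1 to 4. In day 14 replicates 1 to 4 it was lower, at 40.6, 42.2, 42.6 and 44.3, and this difference was not tested. Mean log2 intensity of the tested profiles was 4.11 ± 0.05 at day 28 and 4.03 ± 0.08 at day 14 (SD, n = 4 each; exact permutation p = 0.14, adjusted 0.19). For the bright profiles it was 6.96 ± 0.03 and 6.89 ± 0.04 (SD, n = 4 each; exact permutation p = 0.057, adjusted 0.11). The 10 most abundant profiles held 21.7 ± 0.26% of the summed intensity at day 28 and 22.0 ± 0.45% at day 14 (SD, n = 4 each; exact permutation p = 0.37, adjusted 0.37). None of these 10 passed the threshold in limma, with log2 changes from -0.34 to 0.10 and the smallest adjusted p at 0.19.

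Individual profiles differed by more than the summed intensity of the distinct profiles did. Of the 2481 tested, 302 differed between the days at a limma adjusted p under 0.05 (12.2%). Of these, 234 were higher at day 28 (9.43%) and 68 lower (2.74%). The median log2 change was 1.02 among the 234 that rose and -0.86 among the 68 that fell, against 0.05 over all tested profiles. The excess of rises depended on scaling: centring each array on its bright profiles gave 111 higher and 107 lower, and quantile normalization of the tested profiles 138 and 89. Centring on the median of all distinct profiles gave a larger excess, 253 higher and 57 lower. At least 2-fold changes were found in 120 of the profiles that rose (4.84% of those tested) and 22 of those that fell (0.887%). The arrays of the days did not overlap for 349 profiles that were higher at day 28 (14.1%) and 158 that were lower (6.37%), and these include 219 of the 234 and 66 of the 68.

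The number of calls depended on single arrays. Leaving out day 28 replicate 3, day 28 replicate 4 or day 14 replicate 3 left 0 calls, leaving out day 14 replicate 1 left 1 and leaving out day 14 replicate 2 left 18, while 549, 577, 655, 633 and 677 profiles then had an unadjusted limma p under 0.05. Leaving out day 14 replicate 4 gave 357 calls and leaving out day 28 replicate 1 or 2 gave 318 or 284. Over the 8 fits with 1 array left out, the median log2 change of the 234 lay between 0.94 and 1.13. That of the 68 lay between -0.94 and -0.80. Both sets were selected with all 8 arrays in the fit, which favours medians that move little, so they are no support for the calls. With each close day 28 pair averaged to 1 array, limma called 0 profiles, and 491 had an unadjusted p under 0.05. Fitted without the level filter, over all 25112 distinct profiles, limma called 188 (0.749%), 153 higher (0.609%) and 35 lower (0.139%).

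**Figure D2:**
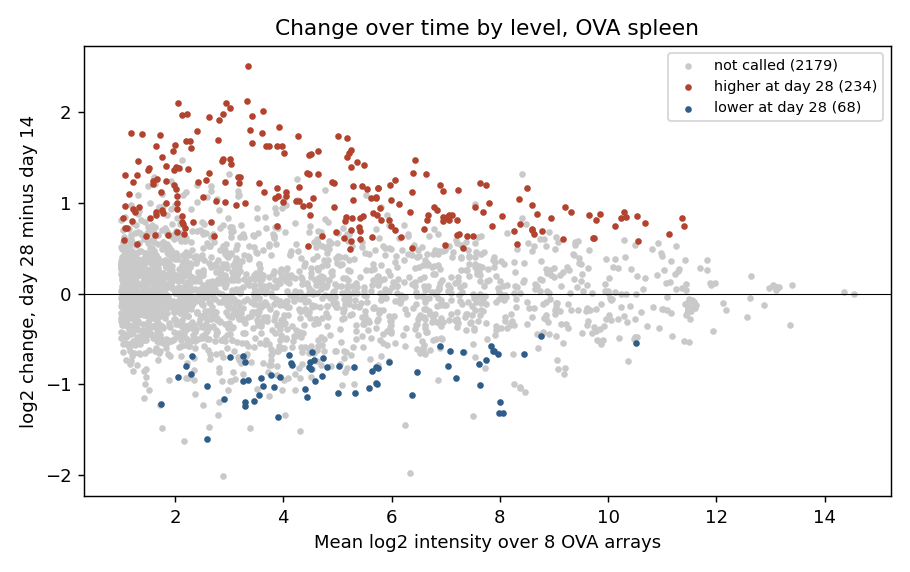
Log2 change, day 28 minus day 14, of each of the 2481 profiles against its mean log2 intensity over the 8 OVA arrays. Coloured points passed limma's adjusted p of 0.05, 234 higher and 68 lower at day 28. The largest rises lie below a level of 4, and the most abundant profiles at the right lie close to 0.

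Calls were found at every level of abundance. From a mean log2 intensity of 1 to 2, close to the floor of the array, 40 of 773 profiles rose and 1 fell. At 2 to 4, 64 of 702 rose and 22 fell, and at 4 to 6, 62 of 430 rose and 25 fell. Profiles that rose thus made up 5.17%, 9.12% and 14.4% of these classes. Among abundant RNAs, 37 of 294 rose and 15 fell at 6 to 8, 21 of 168 rose and 4 fell at 8 to 10, and 10 of 114 rose and 1 fell at 10 and over. The profiles that rose did so by a median of 1.38 log2 units at 2 to 4 and of 0.81 at 10 and over.

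The share of profiles that rose was larger where more probe sets had the same values. Among profiles held by a single probe set, 118 of 1942 rose (6.08%) and 56 fell (2.88%). Among those shared by 10 or more probe sets, 43 of 108 rose (39.8%) and 1 fell (0.926%). The classes between had 46 of 315 that rose at 2 to 4 probe sets (14.6%) and 27 of 116 at 5 to 9 (23.3%). After centring on the bright profiles, 19 of the 108 were called higher (17.6%) and 2.94% of the single ones, and after quantile normalization 26.9% and 3.40%. Without day 28 replicates 3 and 4, 0 were called in each class. Within bright profiles alone, as deposited, the shares were 8.06% for a single probe set and 38.5% for 10 or more. What the widely shared profiles have in common beyond their identical values cannot be read without names.

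Mean log2 intensity of the 108 profiles shared by 10 or more probe sets was 6.58, 6.60, 6.73 and 6.66 in day 28 replicates 1 to 4, against 6.09, 6.23, 6.05 and 6.34 in day 14 replicates 1 to 4. In this mean the close day 28 pairs differed little, and all 4 day 28 arrays lay above all 4 day 14 arrays. The pairs differed more in the median log2 change of the 108 profiles. It was 0.38 without replicates 3 and 4 and 0.64 without replicates 1 and 2. In saline spleens the mean log2 intensity was 5.89 and 5.97 at day 28, against 6.31 and 6.20 at day 14, so the saline arrays ran the other way. The 1942 single profiles averaged 3.84, 3.89, 3.82 and 3.75 in day 28 replicates 1 to 4, against 3.68, 3.85, 3.87 and 3.76 in day 14 replicates 1 to 4, and overlapped. The median log2 change of the 108 was 0.49 as deposited, and it stayed positive, between 0.38 and 0.52, under 3 other scalings of the arrays. For the single profiles the median was 0.02 as deposited, -0.07 after quantile normalization of the tested profiles, 0.04 after centring on all distinct profiles and -0.10 after centring on the bright ones.

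**Figure D3:**
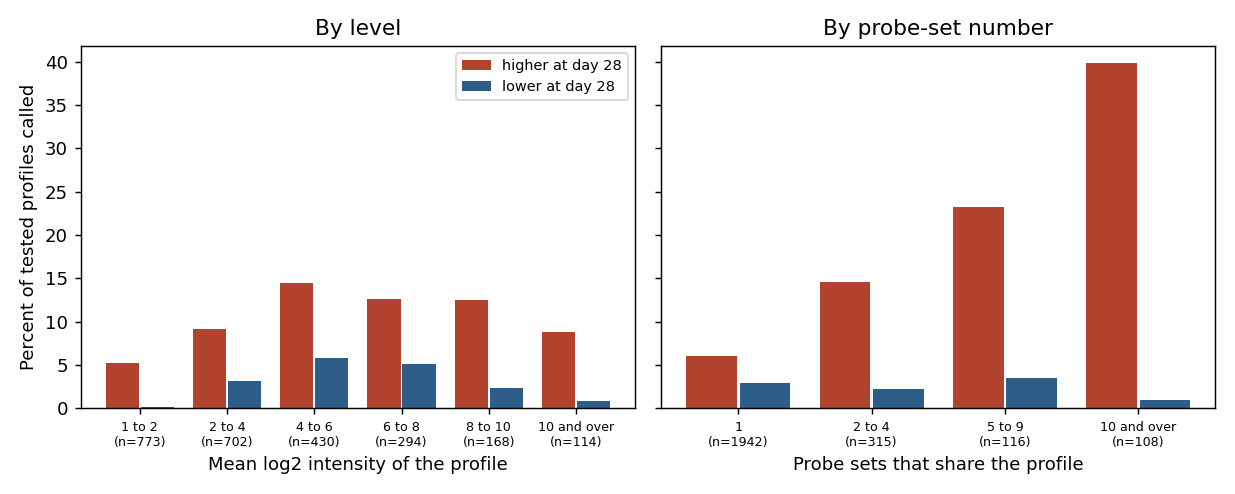
Percent of tested profiles called higher or lower at day 28 by limma, in classes of mean log2 intensity (left panel) and of the number of probe sets that share a profile (right panel), with the number of profiles tested under each class. The share called higher is 6.08% for single probe sets and 39.8% for profiles shared by 10 or more, while the share called lower stays below 4% in each of these 4 classes.

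The pairs of day 28 arrays differed in the size of the changes. Among the 234 profiles that rose, replicates 3 and 4 lay a median of 1.26 log2 units above the day 14 mean and replicates 1 and 2 a median of 0.78 above it. Among the 68 that fell, the medians were -1.08 and -0.67. These profiles were selected with all 8 arrays in the fit, which favours a change in the same direction in both pairs. The same selection bears on the order of the pairs given below, which was not tested. Over all 2481 tested profiles the medians were -0.01 for replicates 3 and 4 and 0.10 for replicates 1 and 2. Both arrays of the pair 3 and 4 lay above both of the pair 1 and 2 in 189 of the 234 profiles that rose (80.8%), and below both in 49 of the 68 that fell (72.1%), against 25.4% above and 33.2% below over all tested profiles. Without replicates 3 and 4 limma called 0 profiles, with 334 at an unadjusted p under 0.05. Without replicates 1 and 2 it called 475, 291 higher and 184 lower.

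Day 14 replicate 4 was the highest of the 4 day 14 arrays in 150 of the 234 profiles that rose and the lowest in 35 of the 68 that fell, against 705 and 742 of all 2481. The 234 and the 68 were selected on these same arrays, and the order within day 14 was not tested. Relative to the day 14 mean, the median over the 234 profiles was 0.72, 0.84, 1.26 and 1.24 in day 28 replicates 1 to 4, against -0.19, 0.01, -0.07 and 0.27 in day 14 replicates 1 to 4.

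**Figure D4:**
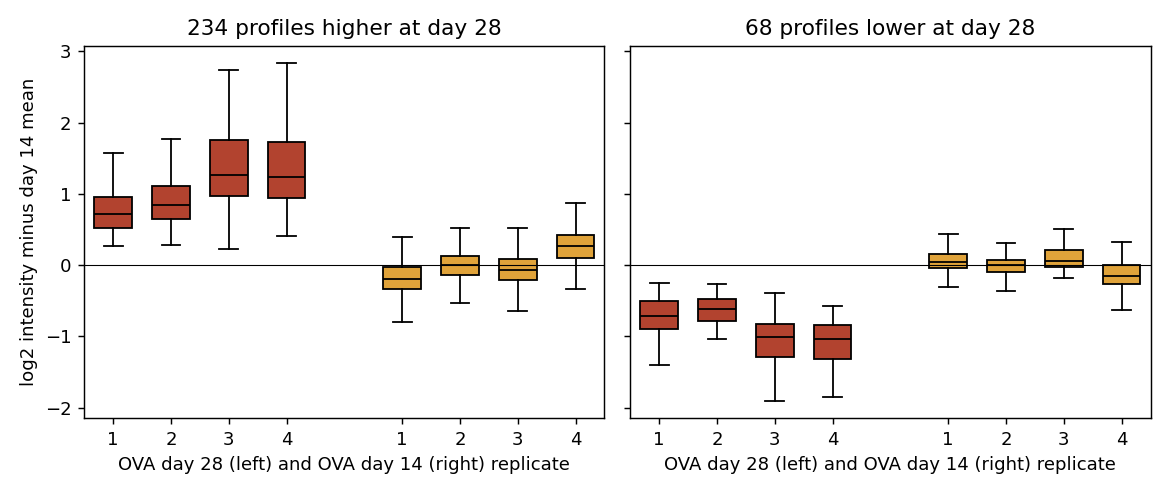
Log2 intensity of each called profile minus its day 14 mean, by array, for the 234 profiles higher and the 68 lower at day 28. Boxes show the quartiles with the median as a line, and whiskers reach to 1.5 times the interquartile range. Day 28 replicates 3 and 4 depart most from the day 14 mean, and day 14 replicate 4 lies on the day 28 side of the other day 14 arrays.

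The spread between arrays was not larger at day 28 over the tested profiles as a whole. The SD within a group had a median of 0.27 log2 units at day 28 and 0.32 at day 14 over the 2481 profiles, and it was larger at day 28 for 1006 of them (40.5%). It was larger at day 28 for 134 of the 234 profiles that rose (57.3%) and 50 of the 68 that fell (73.5%). Within the close pairs the SD had a median of 0.15 for replicates 1 and 2 and 0.14 for replicates 3 and 4. An SD of 2 arrays tends to be lower than that of 4, so these medians cannot be set against those of the groups. Without replicate 4, the day 14 SD had a median of 0.28 over the 2481 profiles. This is also an SD of fewer arrays, so it cannot be set against that of day 28 either.

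The largest rise was that of probe set 20529318, which no other probe set shared. It stood at a log2 intensity of 3.15, 4.10, 5.46 and 5.72 in day 28 replicates 1 to 4, against 1.65, 1.49, 2.42 and 2.84 in day 14 replicates 1 to 4. Each day 28 array lay above each day 14 array, and replicates 3 and 4 were the highest. The profile was 5.69-fold higher at day 28 (limma adjusted p = 0.030), a log2 change of 2.51 with an SE of 0.56. Relative to the day 14 mean, the change was 3.49 in replicates 3 and 4 and 1.53 in replicates 1 and 2.

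Probe set 20505113, also a single one, was 4.38 times as bright at day 28, a log2 change of 2.13 (SE 0.51, adjusted p = 0.032 by limma). Its log2 intensity was 3.23, 4.12, 4.89 and 5.38 in day 28 replicates 1 to 4, against 1.43, 2.40, 1.91 and 3.35 in day 14 replicates 1 to 4. Day 28 replicate 1 and day 14 replicate 4 overlapped, the 1 overlap among the 10 profiles with the largest rise.

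The 10 called profiles with the largest rise were 3.90- to 5.69-fold higher at day 28 as deposited. All 10 were of low level, with day 28 means of 3.11 to 4.63 and day 14 means of 1.00 to 2.61 on the log2 scale, and their limma adjusted p ranged from 0.020 to 0.040. Of the 10, 3 were shared by several probe sets: the third by 15, the fifth by 11 and the sixth by 17. The third, for example, averaged 3.11 ± 0.48 at day 28 and 1.00 ± 0.80 at day 14 (SD, n = 4 each), and 1 of its day 14 arrays stood at -0.09. The size of these rises depended on how low intensities were treated. With 8 intensity units added before log2, the log2 changes of the 10 lay between 0.71 and 1.45 (2.51 became 1.45 for 20529318, 2.13 became 1.19 for 20505113 and 2.11 became 0.72 for the third), and all 10 still passed the threshold.

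Among the called profiles that fell, probe set 20506476 changed most. Its log2 intensity was 2.15, 2.44, 1.49 and 1.11 in day 28 replicates 1 to 4, against 3.03, 3.28, 4.12 and 3.16 in day 14 replicates 1 to 4. No day 28 array reached the lowest day 14 array. The profile was 3.03-fold lower at day 28, with a log2 change of -1.60 (SE 0.33) and a limma adjusted p of 0.025.

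Probe set 20518944 fell 2.57-fold, by a log2 change of -1.36 (SE 0.22) at a limma adjusted p of 0.020. It stood at 3.60, 3.61, 2.93 and 2.73 in day 28 replicates 1 to 4, against 4.53, 4.76, 4.51 and 4.53 in day 14 replicates 1 to 4. The day 14 arrays lay close together and above all day 28 arrays, of which replicates 3 and 4 were the lowest.

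The 10 called profiles with the largest fall were 2.24- to 3.03-fold lower, with limma adjusted p from 0.020 to 0.047, and none of them overlapped between the days. Another 14 profiles had log2 changes as low as the tenth of these or lower, down to -2.01, but did not pass the threshold. With 8 intensity units added before log2, the 10 changes lay between -1.27 and -0.39, 9 of them passed, and those of 20506476 and 20518944 became -0.69 and -0.87. Abundant RNAs were among the 10 that fell. The third, shared by 9 probe sets, averaged 7.32 ± 0.57 at day 28 and 8.64 ± 0.46 at day 14 (SD, n = 4 each), and the fourth 7.39 ± 0.58 and 8.71 ± 0.40 (SD, n = 4 each). These profiles and the eighth, at 7.41 ± 0.66 and 8.61 ± 0.40 (SD, n = 4 each), differed from each other by at most 0.23 log2 units on any of the 8 arrays. Whether they measure related RNAs was not tested. Among all 1006 bright profiles, 395 had another within 0.25 log2 units on each of the 8 arrays. Of the 130 bright profiles that rose, 31 had such a neighbour among themselves (23.8%), and of the 45 that fell, 11 (24.4%). The share over all bright profiles was 39.3%, but there the search ran among 1006 profiles. A smaller set offers fewer neighbours, so these shares cannot be compared.

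**Figure D5:**
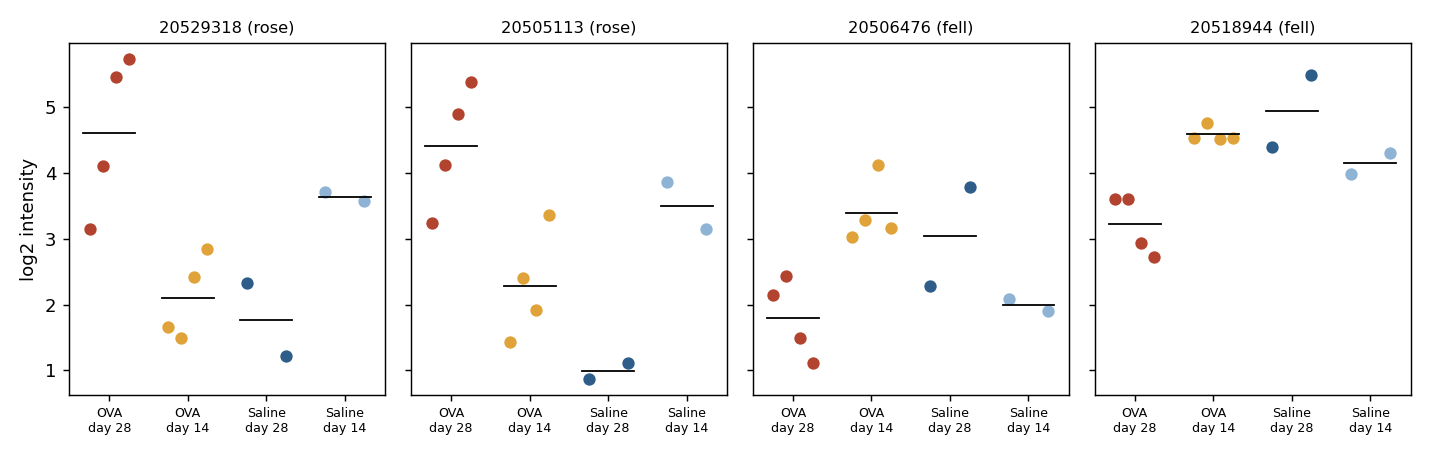
Log2 intensity of the 4 called probe sets described by identifier, by array and group, with group means as lines (4 arrays in each OVA group, 2 in each saline group). For 20529318 and 20505113 OVA day 28 lies above OVA day 14 while saline day 28 lies below saline day 14. For 20506476 and 20518944 both orders are turned round.

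The saline arrays, which were not in the fit, are the background for these changes. Over the 234 profiles that rose in OVA, the median log2 change of saline spleens from day 14 to day 28 was -0.63, and over the 68 that fell it was 0.34, against 0.12 over all tested profiles. The median level of the 234 was 5.09 in OVA day 28 and 3.87 in OVA day 14, against 3.52 in saline day 28 and 4.58 in saline day 14. OVA day 14 thus lay below saline day 14 for these profiles, as far as a selection that uses the OVA day 14 arrays allows a comparison.

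The difference between the arms in their change over time was tested in a limma fit to all 12 arrays. It passed the adjusted threshold for 446 of the 2481 profiles (18%), 287 with a more positive change in OVA (11.6%) and 159 with a more negative one (6.41%). Profiles entered this test by their level over the OVA arrays alone, so profiles bright mainly in saline spleens could be left out of these counts. Of the 20 profiles described above by rank, 15 were among the 446. For 20529318 the change over time was 4.38 log2 units more positive in OVA than in saline at a limma adjusted p of 0.011 (SE 0.92). Probe set 20505113 had a difference of 4.63 with an SE of 0.83 (limma adjusted p = 0.0065). The difference was -2.64 for 20506476 with an SE of 0.65 and a limma adjusted p of 0.019. It was -2.16 for 20518944, where the SE was 0.46 and the limma adjusted p 0.011. The profiles were chosen for their change in OVA, which favours a difference of that sign. The saline side rests on 2 arrays a day, and leaving out saline day 14 replicate 2 or 1 lowered the count to 194 or 226. It dropped to 249 when saline day 28 replicate 1 was left out, to 292 when OVA day 28 replicate 3 was, and to 166 when OVA day 28 replicates 3 and 4 both were.

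As spleens were measured whole, fewer cells of a type and less RNA per cell cannot be told apart for any of these profiles.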

How the data were processed

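Per the labels' protocols, total RNA with its small RNA fraction was taken from frozen spleens and 0.5 µg was biotin-labelled with the FlashTag reagent of Affymetrix. The deposited table gives 1 linear intensity per probe set and array, from 0.627 to 24076. How the authors summarised, background-corrected and normalized it, and in which batches arrays were run, is not given in the sources used here. The median intensity was 1.03 to 1.09 on each of the 12 arrays and the mean 40.6 to 51.7. No detection calls were used, and precision is limited by the few arrays in each group.

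Deposited intensities were converted to log2 without an offset. Profiles with a mean log2 of at least 1 over the 8 OVA arrays were fitted with limma 3.58.1 in R 4.3.3 (lmFit, eBayes; 6 residual and 3.35 prior degrees of freedom), two-sided, with Benjamini-Hochberg adjustment over the 2481 profiles tested and a threshold of 0.05. Identifiers were printed for the 2 largest rises and 2 largest falls among the calls, since no table names the probe sets, and the 10 largest in each direction were described by rank. The first identifier stands for a profile. The gene lists prepared for named miRNAs could not be applied. The procedure was tested on simulated data.

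The profiles, level limits and replicate pairs were chosen with earlier results of these data known. The labels tie no number to a shared animal, litter or day, so numbers were not taken as pairs. Same-numbered arrays of the days did not deviate together throughout (correlations of deviations 0.21, 0.14, -0.09 and 0.35 for numbers 1 to 4). These correlations cannot decide whether such arrays are paired. Other settings covered scaling, level filter, offset, spread, replicate block and left-out arrays.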

Additional observations from a re-analysis of the deposited data

Results flagged for a closer look

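Of 50 checks for an array far from the other arrays of its OVA group, 2 found one, and chance gives about 1 in 20. In OVA day 14, replicate 1 stood at 1.38 for the fifth largest rise, against 2.15 to 2.26 in replicates 2 to 4, a gap of 0.876 of the group's range. For 20518944, OVA day 14 replicate 2 stood at 4.76, against 4.51 to 4.53 in the other arrays, a gap of 0.904 of the range.

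The change over time differed between OVA and saline, by the limma test of the difference itself, in 446 of the 2481 profiles (18%). For the probe sets given by identifier, it was 4.38 log2 units more positive in OVA for 20529318 and 4.63 for 20505113. The difference was -2.64 for 20506476 and -2.16 for 20518944. These probe sets were picked for their change in OVA, which favours a difference of that sign. The saline side rests on 2 arrays a day.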

How the results depend on the processing

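The 20 profiles described by rank kept their direction under every setting tried, in 439 values. They were chosen for the largest called changes, and 9 of the 10 rises and all 10 falls did not overlap between the days. Leaving out arrays could not reverse those, so the kept direction is no support. The limma adjusted p of the 20 profiles passed the threshold in 275 of the 439 values and missed it in 164. Against 302 calls of 2481 in the report, the count was 188 of 25112 without the level filter. It was 1758 of 5249 with every probe set tested on its own, which counts probe sets of identical values more than once. At an unadjusted limma p under 0.05 it was 746 of 2481. The count was 475 without OVA day 28 replicates 1 and 2. It was 0 without OVA day 28 replicates 3 and 4 (334 at an unadjusted p under 0.05). With the day 28 pairs averaged, a setting chosen after seeing the data, it was 0. With 1 array left out it ranged from 0 to 357. With the replicate block it was 340, but the labels give no pairing by number. It stayed within 1.5 times of 302 under the other scalings, filters, offset and estimates of the spread. Centring on the median of all distinct profiles gave 253 higher and 57 lower. Centring on the bright profiles, which lowers every log2 change by 0.12, gave 111 higher and 107 lower, and quantile normalization 138 and 89. The median change over tested profiles was then -0.069 with bright centring, and 0.22 with every probe set on its own. The count of profiles that changed differently in OVA and saline ranged from 194 to 574 with 1 array left out and was 166 without OVA day 28 replicates 3 and 4. The causes were not tested. Changes in profiles with a mean log2 under 1 are covered only by the fit without the filter, and the 2 saline arrays a day limit the comparison of the arms.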

Other observations

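For 19 of the 25112 distinct profiles (0.0757%), all 4 OVA day 28 arrays lay at a log2 intensity of 1 or above and all 4 OVA day 14 arrays under it, and 7 of these were among the calls. The opposite held for 2 profiles (0.0080%), of which 0 were called. The limit of 1 is a chosen one. Of the 19, 2 reached a day 28 mean of at least 2. Both saline day 28 arrays were under 1 for 13 of the 19, and both saline day 14 arrays for 11.

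The most variable bright profile within OVA day 28 was held by a single probe set and was not called (limma adjusted p = 0.40). It stood at 6.92, 9.43, 10.2 and 9.75 in day 28 replicates 1 to 4, against 6.28, 5.998, 8.69 and 9.99 in day 14 replicates 1 to 4, so its spread within each day was larger than its log2 change of 1.32. It did not follow the day 28 pairs, since replicate 2 lay with replicates 3 and 4.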
